A study of Mus musculus with 12 samples.

Results

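The major histocompatibility complex (MHC) class II presentation genes were described in subcutaneous Renca tumors of mice, a renal carcinoma line of BALB/c origin. The set holds 10 genes chosen by name, and all 10 were among the 14496 genes of the deposited table and among the 14008 genes tested. They are the transactivator gene Ciita, the class II chain genes H2-Aa, H2-Ab1 and H2-Eb1, the invariant chain gene Cd74, the peptide exchange genes H2-DMa, H2-DMb1 and H2-DMb2, and the exchange modulator genes H2-Oa and H2-Ob. RNA was sequenced from 12 whole tumors, so each library holds transcripts of tumor cells and of stroma. In 6 of them (IK) the mouse also carried a tumor in the kidney, which the series describes as immunosuppressive. The other 6 (SC) grew with no kidney tumor. All were Renca tumors in BALB/C mice taken on day 14, with no genetic change or drug named for either group. Nothing in the labels ties the tumors to separate mice. The p-values here therefore reflect the spread among these libraries, which may be technical.

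Class II molecules carry peptides from endosomes to the cell surface, where CD4 T cells read them. Dendritic cells, macrophages and B cells make them as a matter of course, and many other cells, some tumor cells included, do so when interferon gamma reaches them, through factors such as IRF1. CIITA does not bind DNA itself. It is recruited to the factors RFX, CREB and NF-Y, which sit on the X and Y boxes of class II promoters, and for that reason the class II chain, invariant chain and H2-M genes are known as its shared targets.

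The 2 boxes stand close together in the promoters of several of the 10 genes, and are shown because they are the sequence that CIITA targets are known to share. RefSeq windows of GRCm38.p6, 250 bases before to 50 after a gene start, were present for 7 of the 10 genes, and Ciita, Cd74 and H2-Ab1 were not examined. The X box core was searched as AACNGATG and the Y box as GATTGG, on both strands, and the letters were written from knowledge of class II promoters. H2-DMb1, H2-DMb2 and H2-Eb1 held the X core followed by the Y box on the same strand within 40 bases, an arrangement found in 11 of 32851 windows (0.0335%). H2-Eb2, a class II gene outside the 10 that is not analysed further here, was another of the 11. Whatever stood beside them, the X core was in 2.32% of all windows and the Y box in 16.1%. The searched letters of the boxes do not overlap each other. Capitals mark the X core and then the Y box, and each line reads 5′ to 3′ on the gene's strand.
H2-DMb2 (chr17:34145118-34145168, plus strand): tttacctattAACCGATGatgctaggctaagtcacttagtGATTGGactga
H2-DMb1 (chr17:34153089-34153139, plus strand): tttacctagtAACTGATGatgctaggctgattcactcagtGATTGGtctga
H2-Eb1 (chr17:34305768-34305817, plus strand): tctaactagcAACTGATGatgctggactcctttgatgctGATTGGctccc
H2-Eb2 (chr17:34325535-34325584, plus strand): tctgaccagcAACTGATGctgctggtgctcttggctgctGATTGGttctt
Between the boxes lie 22 bases in H2-DMb1 and H2-DMb2 and 21 bases in H2-Eb1 and H2-Eb2.

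In H2-Aa, H2-Oa and H2-Ob the Y box was present 49, 44 and 58 bases before the RefSeq gene start, without the searched X core ahead of it. RefSeq starts can differ from the GENCODE starts given below, as for H2-Oa, whose GENCODE start falls within the stretch shown. These stretches are shown with the Y box in capitals, so that the letters ahead of it can be set beside those above.
H2-Aa (chr17:34287862-34287911, minus strand): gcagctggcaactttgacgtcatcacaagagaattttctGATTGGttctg
H2-Oa (chr17:34092296-34092345, plus strand): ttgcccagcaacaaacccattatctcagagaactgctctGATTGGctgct
H2-Ob (chr17:34238808-34238857, plus strand): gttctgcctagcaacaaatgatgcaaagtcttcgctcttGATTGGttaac
A match is a description of letters and not a shown binding site, and no match says only that these letters are not in the window. H2-DMa has 2 windows, of which 1 held a Y box and neither the X core. The interferon gamma activated site TTCNNNGAA, in 8.3% of all windows, was found for H2-DMb2 among the 7 genes, and the E box CACGTG, in 7.15% of all windows, for 0 of them.

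In the GENCODE M21 annotation of GRCm38, 8 of the 10 genes lie in the MHC on chromosome 17, from H2-Oa (chr17:34092340-34095234) to H2-Eb1 (chr17:34305867-34316674). Ciita is on chromosome 16 (chr16:10480059-10528418) and Cd74 on chromosome 18.

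The class II genes ranged from among the most abundant transcripts of these tumors to among the least. Per kilobase of exon, Cd74, which escorts new class II molecules and blocks their groove, stood highest at 9.76 log2 CPM, reads scaled to the library total (percentile 99.8 of 13565 genes with a length). The chain genes followed at 8.10 for H2-Eb1, 7.57 for H2-Ab1 and 7.25 for H2-Aa on the same scale. The H2-M genes, whose product exchanges the invariant chain remnant for peptide, stood lower, at 5.82 for H2-DMb1, 5.26 for H2-DMb2 and 4.79 for H2-DMa. Ciita lay near the middle of all genes at 2.98 (percentile 53.6). H2-Oa and H2-Ob, which encode the modulator of H2-M best known from B cells, were lowest at 1.503 and -1.09 (percentiles 27.0 and 5.45).

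Within a tumor these levels kept narrow ratios. Per kilobase, Cd74 was 4.12 to 4.79 times H2-Ab1 over the 12 tumors (median 4.60), and H2-Aa was 0.71 to 0.87 times H2-Ab1 (median 0.80). The lengths are those of all annotated exons merged, 3798 bases for H2-Aa and 2568 for H2-Ab1. Without division by length, H2-Aa lay above H2-Ab1 in every tumor, by 0.07 to 0.37 log2 units. The order of these 2 genes thus depends on the length used. Other orders given per kilobase depend on it too. Undivided, H2-DMa averaged 6.33 log2 CPM in IK tumors and 6.82 in SC tumors, above H2-DMb2 at 5.79 and 6.35. The median ratio per kilobase was 9.70 for H2-DMa over H2-Oa, and 123 for H2-DMb1 over H2-Ob. All 10 genes together took 0.192% to 0.639% of the recovered reads in IK tumors (median 0.241%) and 0.257% to 0.591% in SC tumors (median 0.429%). IK replicate 2 had the highest share of all 12 tumors, and the next IK tumor stood at 0.293%. Cd74 alone made up 42.8% of these reads.

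All 10 class II genes had lower means in IK than in SC tumors, by 0.40 to 0.71 on the log2 scale, and none passed the test. Lower means were found for 46.7% of the 14008 tested genes. With all 12 tumors weighted alike, 0 of the 10 were called by limma at a Benjamini-Hochberg adjusted p of 0.05. In that fit the share of all genes called lower was 0.0%. The smallest adjusted p of any gene was 0.171. At an unadjusted p under 0.05, 9 of the 10 were lower, and so were 5.62% of all genes. The 10 genes ranked the tumors nearly alike, so counts of them, here and below, are not separate results. They were also chosen with earlier results of these data known. The median difference of the 10 was -0.63, against 0.01 over all tested genes.

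Ciita, the master regulator, was between 5.39 and 7.03 log2 CPM in IK tumors (median 5.78) and between 5.95 and 6.95 in SC tumors (median 6.53). The groups overlapped because IK replicate 2 was the highest tumor of all 12. The other 5 IK tumors lay at or below 5.90, under all 6 SC tumors, of which SC replicate 6 was the lowest. The difference was -0.63 (95% interval -1.17 to -0.10, limma unadjusted p = 0.0242, Benjamini-Hochberg adjusted p = 0.432), a 1.55-fold lower level in IK tumors. Between 2674 and 7864 reads lay behind each Ciita value. Ciita shares 329 exonic bases (3.45% of its exons) with Dexi on the opposite strand. Dexi differed by -0.11 (limma adjusted p = 0.557).

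**Figure D1:**
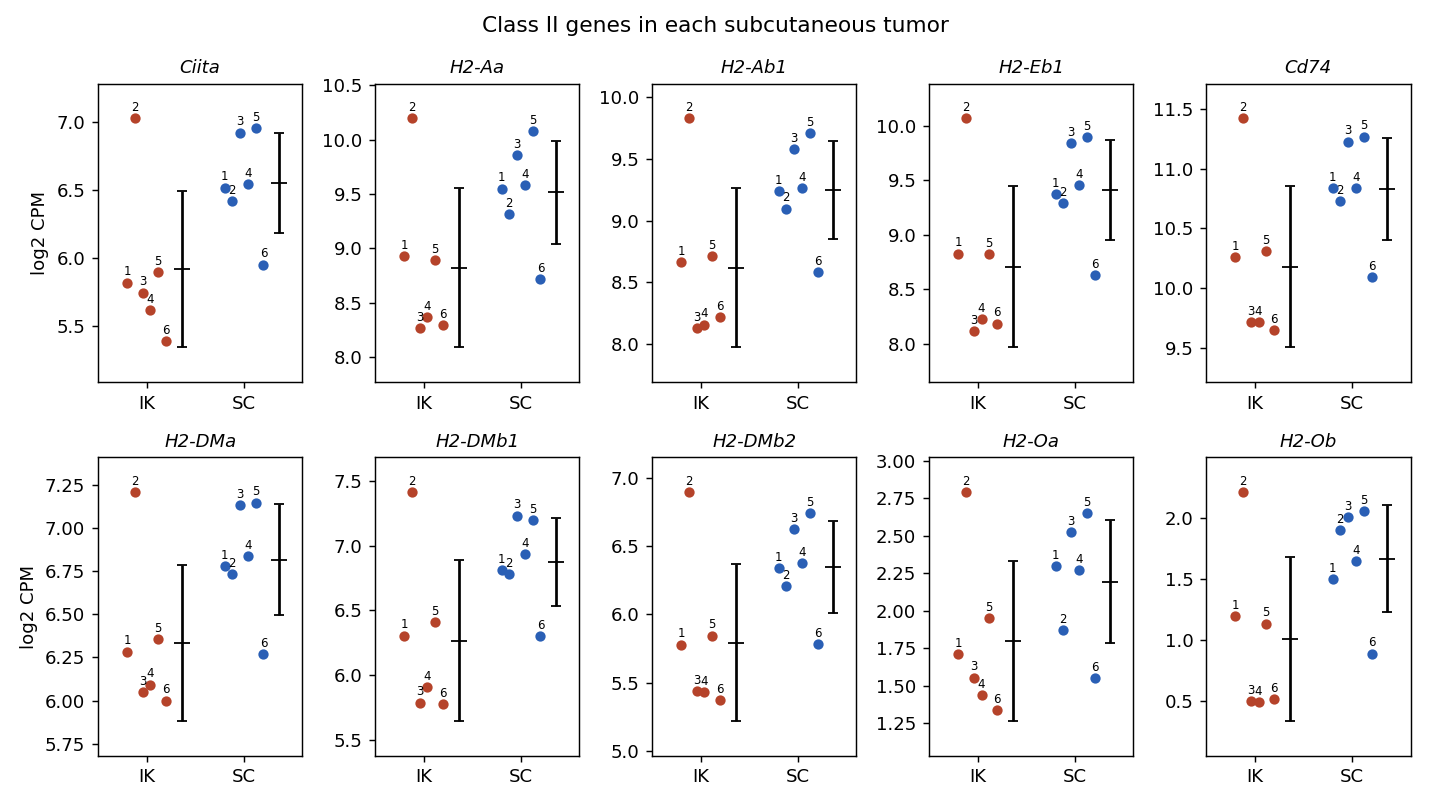
Each panel gives 1 class II gene in log2 CPM, with IK tumors on the left and SC tumors on the right; points are tumors marked by replicate number, and bars show the mean and SD (n = 6 each). IK replicate 2 was the highest of the 12 tumors in every panel, SC replicate 6 was the lowest SC tumor in every panel, and the vertical scales differ between genes.

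The chain genes form the peptide-binding molecule itself. H2-Aa, the alpha chain of the A molecule, was between 8.27 and 10.20 log2 CPM in IK tumors (median 8.63) and between 8.72 and 10.07 in SC tumors (median 9.57). H2-Ab1, its beta chain, was between 8.13 and 9.83 in IK tumors (median 8.44) and between 8.58 and 9.71 in SC tumors (median 9.25). H2-Eb1, the beta chain of the E molecule, was between 8.11 and 10.07 in IK tumors (median 8.52) and between 8.63 and 9.90 in SC tumors (median 9.41). The ranges overlapped for all 3 genes, with IK replicates 3, 4 and 6 at the low end and IK replicate 2 at the top. Differences were -0.69 for H2-Aa, -0.63 for H2-Ab1 and -0.71 for H2-Eb1, each with a limma adjusted p of 0.432. H2-Ea-ps, a pseudogene in the reference strain whose intact form gives the E alpha chain in the BALB/c haplotype, averaged 8.90 ± 0.72 in IK tumors and 9.55 ± 0.45 in SC tumors (log2 CPM, SD, n = 6 each). Its difference of -0.65 was of the same size as that of its partner H2-Eb1 and was not called (limma adjusted p = 0.443). The mm9 genome named in the submitters' processing notes carries another class II haplotype than BALB/c, and the effect of that on the reads mapped to the chain genes was not tested.

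Cd74 was between 9.65 and 11.42 log2 CPM in IK tumors (median 9.99) and between 10.09 and 11.27 in SC tumors (median 10.84). It differed by -0.65 (95% interval -1.28 to -0.02, limma adjusted p = 0.432), so its mean was 1.57-fold lower in IK tumors. As for the chain genes, SC replicate 6 lay among the IK tumors, with only IK replicates 3, 4 and 6 below it.

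Of the H2-M genes, H2-DMa, the alpha chain, was between 6.00 and 7.21 log2 CPM in IK tumors (median 6.19) and between 6.27 and 7.15 in SC tumors (median 6.81). It had the narrowest spread of the 10, with a 2.31-fold range over the tumors. H2-DMb1, a beta chain, was between 5.77 and 7.42 in IK tumors (median 6.11) and between 6.30 and 7.23 in SC tumors (median 6.87). H2-DMb2, the neighbouring beta chain gene, was between 5.37 and 6.90 in IK tumors (median 5.61) and between 5.78 and 6.74 in SC tumors (median 6.36). Again IK replicate 2 lay above the SC range, and IK replicates 1 and 5 lay close to SC replicate 6. Differences were -0.49, -0.61 and -0.55 for H2-DMa, H2-DMb1 and H2-DMb2, with a limma adjusted p of 0.432 each. The beta chain genes are close copies of each other, so how reads were divided between them is uncertain. H2-DMa shares 360 exonic bases (10.4%) with Brd2 on the opposite strand, whose own difference was 0.06 (limma adjusted p = 0.481).

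The modulator genes were the least abundant. H2-Oa was between 1.34 and 2.79 log2 CPM in IK tumors (median 1.63) and between 1.55 and 2.65 in SC tumors (median 2.28). Its difference of -0.40 (95% interval -0.94 to 0.14, limma adjusted p = 0.503) was the smallest of the 10, and its interval alone reached above 0. H2-Ob was between 0.49 and 2.21 in IK tumors (median 0.82) and between 0.88 and 2.06 in SC tumors (median 1.77), a difference of -0.66 (limma adjusted p = 0.432). The lowest tumors held 147 reads of H2-Oa and 76 of H2-Ob, where counting error adds to the spread. H2-Oa also shares 321 exonic bases (22.8%) with an antisense gene, BC051537, that was not analysed here, and strand handling is not given in the sources used here.

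**Figure D2:**
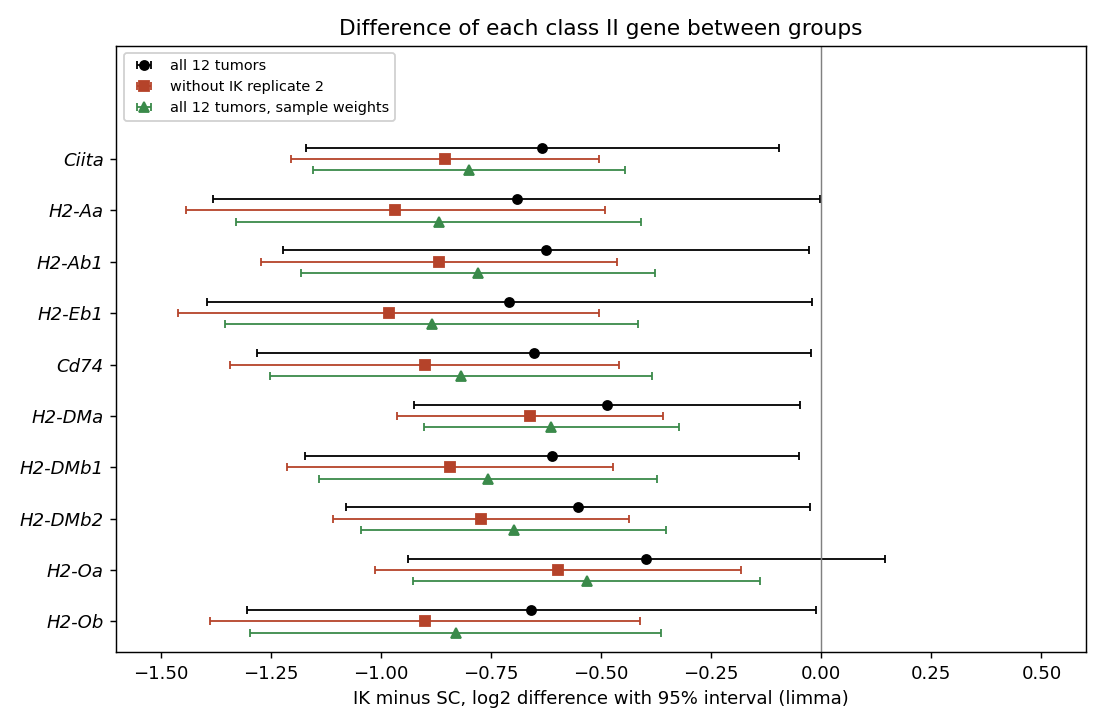
The horizontal axis gives the IK minus SC difference of each class II gene on the log2 scale with its 95% limma interval, for all 12 tumors, without IK replicate 2, and with sample weights. All points lie below 0, and with all 12 tumors weighted alike the H2-Oa interval crosses 0 while the other 9 end just under it.

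Whether the genes were called rested on IK replicate 2. Without that tumor Ciita (-0.85, limma adjusted p = 0.0352), H2-DMb1 (-0.84, 0.0397), H2-DMb2 (-0.77, 0.0397), H2-DMa (-0.66, 0.0448) and H2-Ab1 (-0.87, 0.0473) passed as lower in IK tumors. These are 5 of the 10, against 1.04% of all genes called lower in that fit. H2-Aa, H2-Eb1 and Cd74 differed by -0.97, -0.98 and -0.90, and each had a limma adjusted p of 0.052, while H2-Oa and H2-Ob stood at 0.103 and 0.0604. With limma's sample weights, which gave IK replicate 2 the lowest weight (0.32) and SC replicates 5 and 6 a weight of 0.48 each, 8 of the 10 passed, against 2.93% of all genes called lower. H2-Oa (adjusted p = 0.0945) and H2-Ob (0.0505) were the exceptions. Without SC replicate 6 the differences were -0.53 to -0.87 and 0 of the 10 passed (limma adjusted p = 0.196 to 0.240). A p-value from a fit that drops a tumor takes that choice as given.

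The 10 genes varied far more between tumors of a group than most genes did. Their SD within groups was 0.39 to 0.62 on the log2 scale, at percentiles 91.1 to 96.9 of all tested genes, whose median was 0.11. The highest tumor exceeded the lowest by 2.31-fold for H2-DMa up to 3.89-fold for H2-Eb1, against 1.31-fold for the median gene. The order of the tumors was nearly the same for each gene. IK replicate 2 ranked highest of 12 in all 10 genes, SC replicates 3 and 5 took the places below it, and IK replicates 3, 4 and 6 were at or near the bottom.

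Ciita and the other class II genes moved together over the tumors. In order of Ciita, 5 IK tumors and SC replicate 6 lay between 5.39 and 5.95 log2 CPM, and 5 SC tumors and IK replicate 2 between 6.42 and 7.03. The gap of 0.47 between these sets was the widest, and the next, of 0.38, lay inside the upper set. Over the 12 tumors Pearson's r with Ciita was 0.99 for H2-DMa and H2-DMb2, 0.98 for Cd74, H2-DMb1, H2-Ab1 and H2-Aa, 0.97 for H2-Eb1, 0.96 for H2-Oa and 0.95 for H2-Ob. Spearman's rho was 0.93 to 0.99 (permutation p = 1e-05 to 0.0001, adjusted 0.00202 to 0.00282). Permutation p-values of r were 1e-05, the smallest that 100000 resamples can give, to 7e-05 (two-sided), with Benjamini-Hochberg adjusted values of 0.00116 to 0.00173 over 14007 genes.

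A positive correlation with Ciita was common in these tumors, though r as high as that of the class II genes was not. Of all genes, 15.3% had a positive correlation with Ciita at an adjusted p up to 0.05. By r the class II genes ranked from place 2 (H2-DMa) to place 225 (H2-Ob) of 14007. Without the 2 tumors farthest from the median of Ciita r was 0.93 to 0.99. Within the 6 IK tumors r was 0.94 to 0.98 and within the 6 SC tumors 0.90 to 1.00. The IK values include IK replicate 2, with Ciita at 7.03 log2 CPM against 5.90 or less in the other IK tumors. How far they rest on that tumor was not tested. Within the lower set of 6 tumors, which holds the other IK tumors and SC replicate 6, r was 0.70 to 0.86. Within the upper set r was 0.79 to 1.00. Inside a set or group of 6 no class II gene passed after adjustment over all genes (smallest adjusted p = 0.126, exact permutation, in the IK tumors), and an exact p cannot go below 0.00139 there. Libraries share depth and cell makeup across genes, and the part of these in the correlations was not tested.

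**Figure D3:**
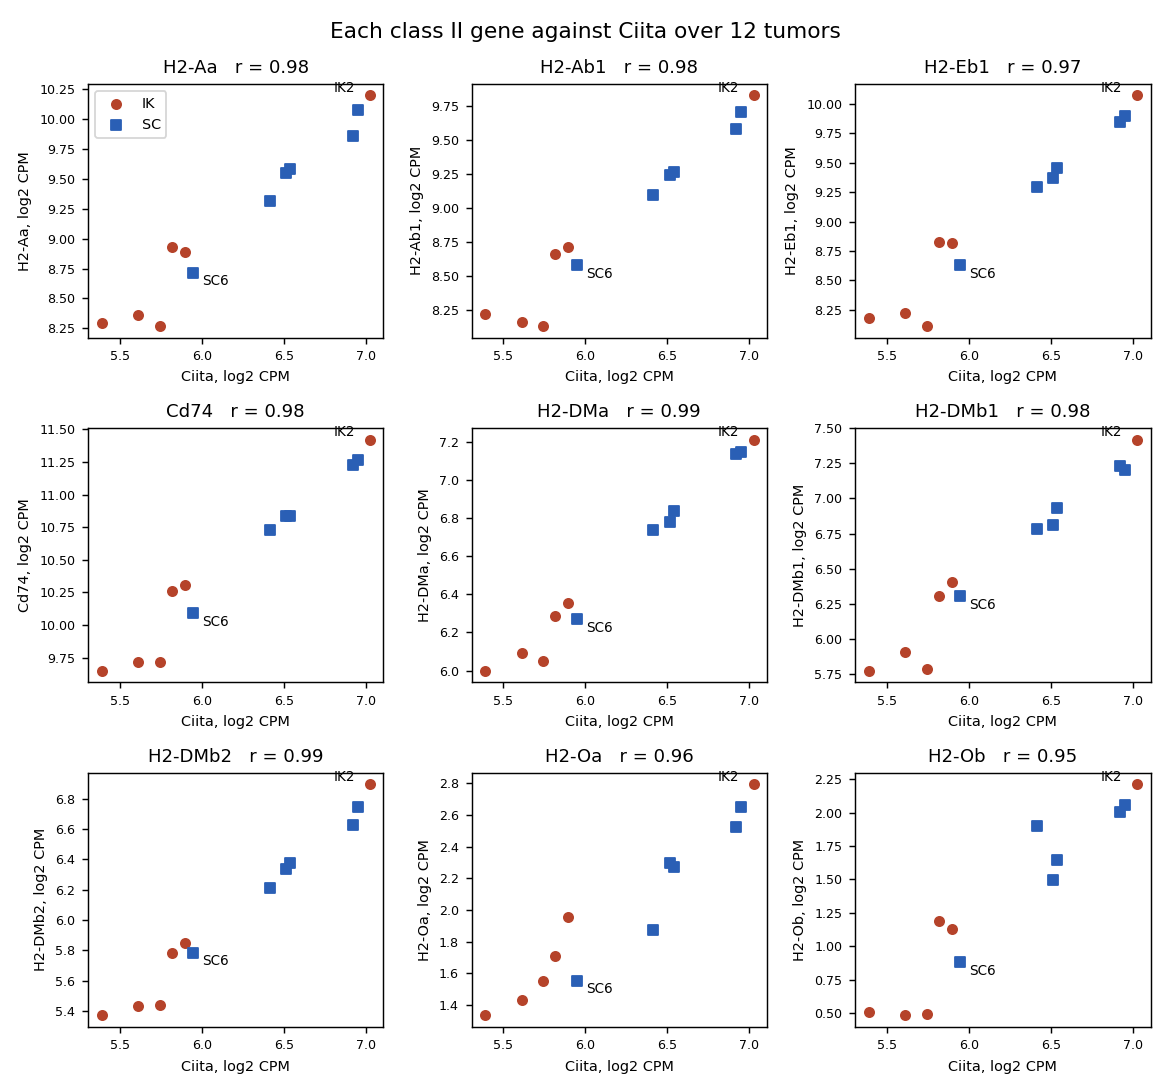
Each panel plots 1 class II gene (vertical) against Ciita (horizontal) in the same tumor, both in log2 CPM, with IK tumors as circles and SC tumors as squares and Pearson's r over 12 tumors in the title. IK replicate 2 lies at the top end among the SC tumors, and SC replicate 6 lies among the IK tumors.

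The estimated steepness against Ciita varied among the genes, and the differences in slope were not tested. For each log2 unit of Ciita, H2-DMa differed by 0.79 units, H2-Oa by 0.85 and H2-DMb2 by 0.93. H2-DMb1, H2-Ab1, H2-Ob and Cd74 lay at 1.00, 1.05, 1.08 and 1.10, and H2-Aa and H2-Eb1 were steepest at 1.194 and 1.197. Outside the 10, the genes most like Ciita by Pearson's r over the 12 tumors included Gbp2b, Tnfsf10, Gbp7, Gm12250 and Gbp11, all with r of 0.99. Gbp2b, a guanylate-binding protein gene, had the highest r of all genes and stood 2.64-fold lower in IK tumors, at 3.97 ± 1.28 against 5.37 ± 0.75 in SC tumors (log2 CPM, SD, n = 6 each, limma adjusted p = 0.432).

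Ratios within a tumor are free of library scaling, and 9 were compared with a two-sided exact permutation test over all 924 assignments, adjusted over the 9. No ratio between class II genes was called. Ciita relative to Cd74 was -4.44 to -3.97 in IK tumors and -4.32 to -4.14 in SC tumors on the log2 scale, a difference of 0.02 (95% interval -0.17 to 0.20, exact p = 0.857, adjusted 0.857). H2-Aa relative to H2-Ab1 differed by -0.07 (interval -0.19 to 0.05), H2-Eb1 relative to H2-Ab1 by -0.08 (-0.20 to 0.04) and Cd74 relative to H2-Ab1 by -0.03 (-0.10 to 0.05). All 3 intervals hold 0, and the groups overlapped for each pair. H2-Oa relative to H2-DMa differed by 0.09 (-0.08 to 0.26) and H2-Ob relative to H2-DMb1 by -0.05 (-0.24 to 0.15).

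H2-DMa relative to H2-DMb1 was steady in SC tumors, at -0.10 to -0.03, and spread in IK tumors, from -0.21 in replicate 2 to 0.26 in replicate 3. The difference was 0.13 (exact p = 0.132, adjusted 0.336). Without IK replicate 2 it was 0.18 (exact permutation, adjusted p = 0.039). IK replicates 3, 4 and 6, the tumors with least class II RNA, had the highest values of this ratio. H2-DMa shares 10.4% of its exonic bases with Brd2, and strand handling is not given in the sources used here. Brd2 had 18986 to 25686 reads per tumor, against 3722 to 9025 for H2-DMa. The part of this overlap in the ratio was not tested.

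Class II RNA was also set against genes of the cells that may carry it. Cd74 relative to Ptprc, the pan-leukocyte CD45 gene, averaged 2.88 ± 0.39 in IK tumors and 3.19 ± 0.21 in SC tumors on the log2 scale (SD, n = 6 each), a difference of -0.31 (95% interval -0.71 to 0.10, exact p = 0.110, adjusted 0.336). Relative to Csf1r, the macrophage growth factor receptor gene, it averaged 1.84 ± 0.58 in IK tumors and 2.37 ± 0.27 in SC tumors (SD, n = 6 each), a difference of -0.53 (-1.11 to 0.05, exact p = 0.067, adjusted 0.336). Both had an exact permutation adjusted p of 0.039 without IK replicate 2, at -0.43 and -0.73. In bulk RNA, fewer cells of a type and less RNA per cell cannot be told apart.

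**Figure D4:**
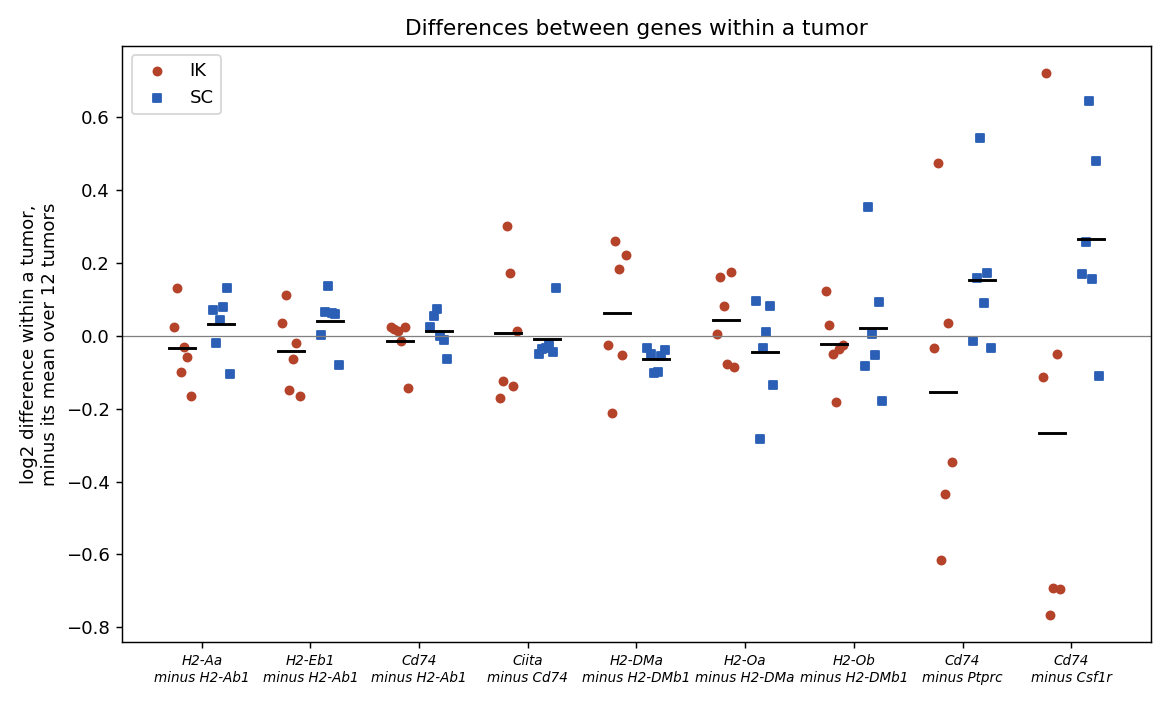
The vertical axis gives the log2 difference between 2 genes in a tumor, minus its mean over the 12 tumors, for 9 pairs, with IK tumors (circles) left of SC tumors (squares) and lines at group means. Ratios among class II genes stay within 0.53 log2 units from lowest to highest tumor, and Cd74 relative to Ptprc or Csf1r spreads over 1.16 and 1.49.

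The class II transcription complex showed small differences, with coactivator and chromatin genes listed beside the RFX, NF-Y and CREB genes. Of 12 genes, 3 had lower means in IK tumors and 0 were called (limma), with a median of 0.04. Rfx5, the DNA-binding subunit of RFX, had the smallest p. It was between 4.29 and 4.54 log2 CPM in IK tumors (median 4.48) and between 4.52 and 4.74 in SC tumors (median 4.62), a difference of -0.15 (limma adjusted p = 0.432). SC replicate 6, low in class II RNA, had the highest Rfx5 of all 12 tumors. Nfya, the NF-Y subunit, differed by 0.06 (adjusted p = 0.456).

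The interferon gamma route to Ciita had lower means in 6 of the 10 genes reported, a median of -0.10, and 0 called. Irf1, which acts at the inducible Ciita promoter, was between 5.77 and 7.51 log2 CPM in IK tumors (median 6.01) and between 6.17 and 7.30 in SC tumors (median 6.83). It differed by -0.57 (limma adjusted p = 0.443). Prdm1, a repressor of Ciita, was also lower on average (-0.29, limma adjusted p = 0.432). Irf1 had an r of 0.97 with Ciita, place 92 of 14007 genes. Of genes outside this route, r was 0.97 for the T cell gene Cd3e, 0.93 for Ptprc, 0.81 for Csf1r and 0.39 for Rfx5. The receptor genes Ifngr1 and Ifngr2 differed by 0.04 and 0.01. Ifng itself lay below the filter, with 1 read in its lowest tumor, and averaged -2.99 ± 2.21 in IK tumors and -0.27 ± 1.15 in SC tumors (log2 CPM, SD, n = 6 each). Without IK replicate 2, Irf1 passed (1 of 10, limma, against 1.04% of all genes called lower).

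Factors at the myeloid and lymphoid Ciita promoters had lower means in 6 of 7 genes (median -0.22, 0 called). Irf8, a factor of dendritic cells and macrophages, differed by -0.57 and Batf3, a factor of cross-presenting dendritic cells, by -0.53 (limma adjusted p = 0.432 and 0.438). The endosomal proteases and other loading genes were lower in 10 of 16, with a median of -0.04 and 0 called. Ctss, the protease that trims the invariant chain, differed by -0.27, Ifi30, a reductase that unfolds antigen, by -0.11, and Cst3, a protease inhibitor, by -0.26. Tcirg1, a proton pump subunit, differed by -0.20, and the limma adjusted p of these 4 ranged over 0.432 to 0.525.

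Receptors that meet class II and its costimulators were lower in 10 of 10 genes (median -0.45, 0 called with all 12 tumors weighted alike). Limma called 1 of the 10, Cd28, without IK replicate 2, and Cd4, Cd28, Ctla4 and Cd274 with sample weights, against 1.04% and 2.93% of all genes called lower in those fits. Cd4, the class II coreceptor, was between 2.63 and 4.32 log2 CPM in IK tumors (median 2.79) and between 2.80 and 4.74 in SC tumors (median 3.92), a difference of -0.85. Lag3, an inhibitory receptor for class II, differed by -0.68, and Cd274, which encodes PD-L1, by -0.35. Limma adjusted p-values were 0.432 for Cd4 and Cd274 and 0.469 for Lag3. The class I route was lower in 9 of 9 tested genes, with a median of -0.60 and 0 called, beside the -0.63 of class II. Nlrc5, the class I counterpart of CIITA, differed by -0.87 and Tapbp, which encodes tapasin, by -0.35 (limma adjusted p = 0.432 each). Psmb9 was not analysed here. Without IK replicate 2, 8 of these 9 class I genes passed, against 5 of the 10 class II genes and 1.04% of all genes called lower. The difference between the lists was not tested. With sample weights the called genes were 8 of 9 for class I, 3 of 10 for the interferon gamma route (Irf1, Socs1 and Prdm1) and 2 of 7 for the promoter factors (Irf8 and Batf3), all lower (limma).

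Many markers of other cells, though not all, also had lower means in IK tumors, and their part in the result was not tested. Means were lower in IK tumors for 8 of 8 pan-leukocyte genes (median -0.25), 9 of 11 macrophage and monocyte genes (-0.15), 10 of 10 dendritic cell genes (-0.53) and 8 of 8 T cell genes (-1.34). In each list 0 were called with all 12 tumors weighted alike (limma). In the fits that called class II genes, some of these markers were called lower too. With sample weights (2.93% of all genes called lower) they were 8 of 8 T cell genes, 2 of 8 pan-leukocyte genes (Ptprc and Lcp1), 2 of 10 dendritic cell genes (Xcr1 and Batf3) and 1 of 11 macrophage and monocyte genes (Ly6c2). Without IK replicate 2 (1.04% of all genes) they were 2 of 8 T cell genes, Cd5 and Trac, and 0 of the other 3 lists. Summed macrophage markers were 3794 to 5280 CPM in IK tumors and 3629 to 5045 in SC tumors. Summed dendritic cell markers were 147 to 252 and T cell markers 12.2 to 88.0 CPM in IK tumors, against 142 to 302 and 17.99 to 94.1 in SC tumors. Median sums of macrophage, dendritic cell and T cell markers were 3935, 165 and 17.75 CPM in IK tumors. In SC tumors they were 4361, 202 and 53.3 CPM. IK replicate 2 held the highest IK sum of each of these lists, as it did for class II RNA. None of the list markers analysed was at 0 reads in any tumor. Of the B cell markers, Ms4a1 was not analysed here, and 3 passed the filter, 2 of them lower.

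Among single markers, Csf1r differed by -0.12, Adgre1, the F4/80 macrophage gene, by -0.18, Itgax, the CD11c gene, by -0.20 and Flt3, a dendritic cell receptor gene, by -0.60. Ptprc differed by -0.35, Cd3e, a T cell receptor subunit gene, by -1.24 and Cd79b, a B cell receptor subunit gene below the filter, by -0.66. The monocyte gene Ly6c2 differed by -1.515, the dendritic cell genes Xcr1 and Siglech by -0.79 and -1.21, and the T cell gene Cd5 by -1.59. These differences had limma adjusted p-values between 0.432 and 0.593. The tumor markers Krt8, Pax8 and Cdh16, a keratin and 2 renal genes, averaged 9.98, 6.57 and 9.88 log2 CPM in IK tumors. In SC tumors they averaged 10.02, 6.70 and 10.01. These genes were named after their values were seen. Epcam, of the same list, was far less abundant, at 2.17 in IK tumors and 2.11 in SC tumors, and Krt19 was not analysed here. Epithelial markers were lower in 5 of 6 genes by a median of -0.06, with Epcam at 0.06. Summed epithelial markers were 2479 to 2611 CPM in IK tumors and 2359 to 2965 in SC tumors. Endothelium (4 of 4 lower, median -0.22) and fibroblast markers (5 of 5 lower, median -0.37) had 0 called.

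**Figure D5:**
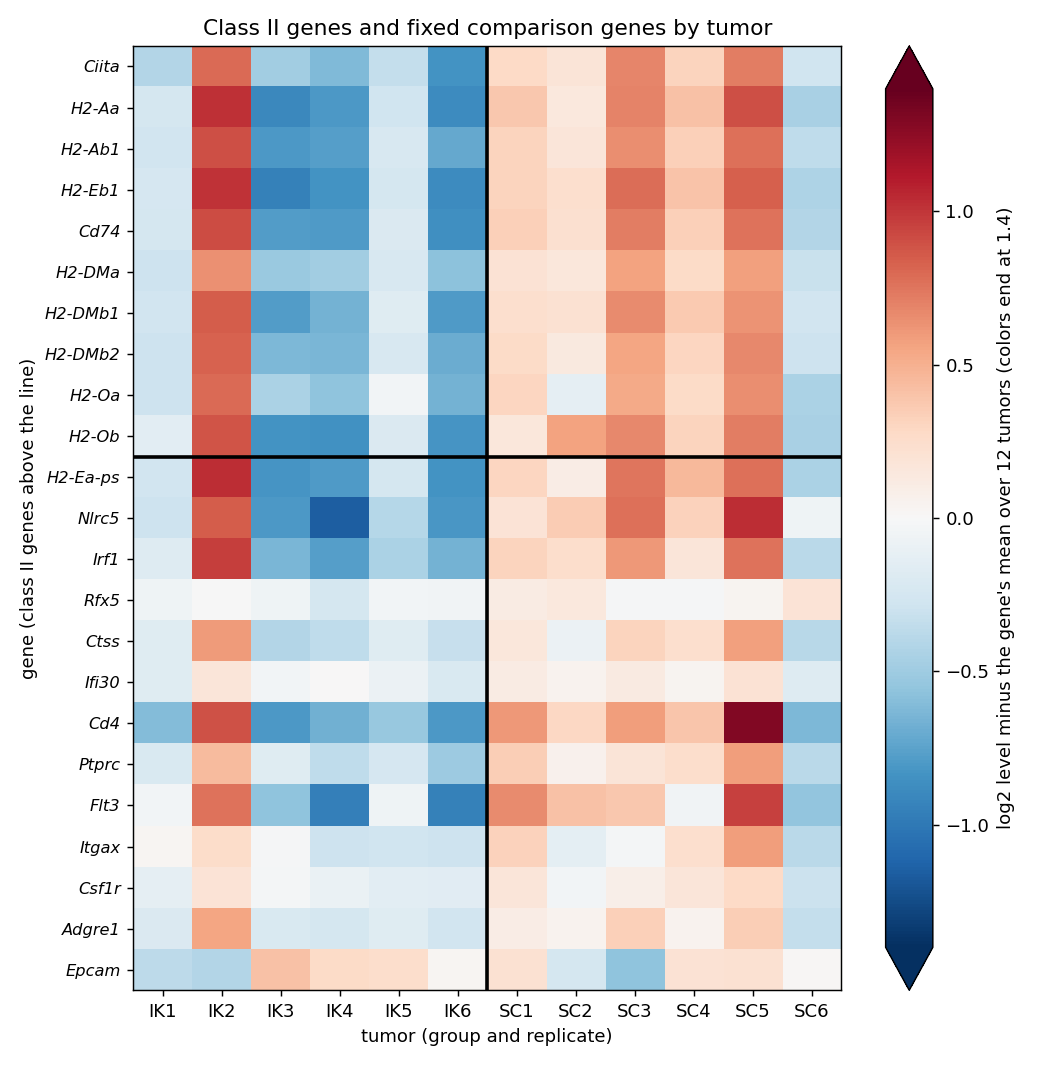
Rows are the 10 class II genes (above the line) and 13 genes fixed for comparison, columns are the IK and then the SC tumors, and color gives the log2 level minus the gene's mean over 12 tumors. IK replicate 2 is red and IK replicates 3, 4 and 6 are blue across class II, Nlrc5 and Irf1, while Rfx5, Ifi30 and Csf1r are pale.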

How the data were processed

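RNA of 12 whole tumors was sequenced with the Illumina TruSeq RNA kit, per the labels' protocols. Named in the submitters' processing notes are build mm9, TopHat 1.4.1, HTSeq, CASAVA 1.8.2 and limma, while strand handling is not given in the sources used here. The authors deposited 1 table of log2 CPM with 0.5 reads added, for 14496 Ensembl genes. Whole reads were recovered within 0.001 for 100% of values, giving 53312559 to 66142468 reads per tumor. Within groups, all 30 pairs of tumors differed beyond sampling noise (chi-square over its degrees of freedom at least 13.2).

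Genes at a log2 value of at least 0 in at least 6 tumors entered limma 3.58.1 under R 4.3.3 (trended empirical Bayes, two-sided, Benjamini-Hochberg over 14008 genes, threshold 0.05), checked on simulated data. Differences are IK minus SC. Exact permutations of ratios and correlations with 100000 resamples used numpy 2.4.6. Genes were matched by Ensembl identifier. Exon lengths, positions and overlaps come from GENCODE M21 (GRCm38), and no coordinates of mm9 are given. Deviations of same-numbered tumors had correlations of -0.31 to 0.45, highest for replicate 6, which cannot settle whether they are pairs. The labels name no pairs, so none were used in the main fit, and a replicate block was an alternative.

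The members and lists were chosen with earlier results of these data known. Names in the text were taken from the 10, the 6 most correlated with Ciita, the 2 of smallest p in each list and a set of fixed genes. Some such genes are not reported here, and list counts do not include them. Ifngr1, Ifngr2, Krt8, Pax8, Cdh16, Dexi, Brd2, Cd28, Ctla4, Lcp1, Trac and Socs1 were named after their values were seen. Alternatives were filters, scalings, 2 reads added, variance models, sample weights, voom, a replicate block and leaving out each tumor. List counts without IK replicate 2 and correlations within sets of tumors were added after seeing the data.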

Additional observations from a re-analysis of the deposited data

Results flagged for a closer look

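Of 84 groups examined (42 quantities in each of 2 groups of 6 tumors), 23 had an end tumor whose gap to its nearest neighbor, as a share of the group's range, exceeded Dixon's 95% critical value for 6 samples. Chance gives about 1 in 20 such groups, and the quantities are correlated, so these are not separate results.

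IK replicate 2 was the high tumor in 19 of them. Among class II genes its gap was 0.691 of the IK range for Ciita, 0.658 for H2-Aa, 0.659 for H2-Ab1, 0.635 for H2-Eb1, 0.629 for Cd74, 0.706 for H2-DMa and 0.69 for H2-DMb2. H2-DMb1, H2-Oa and H2-Ob did not exceed the limit. For H2-Ea-ps it was 0.682 and for the share of reads in class II genes 0.774. Outside class II it was 0.656 for Irf1, 0.76 for Ctss, 0.835 for Cd4, 0.646 for Ptprc and 0.891 for Adgre1. Among the genes most correlated with Ciita it was 0.733 for Gbp2b, 0.674 for Tnfsf10, 0.761 for Gbp7, 0.666 for Gm12250 and 0.643 for Gbp11.

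The other 4 had other end tumors. IK replicate 4 was low for Rfx5 (0.749), at 4.29 log2 CPM beside 4.48 in the next tumor. IK replicate 6 was low for Cd74 relative to H2-Ab1 (0.767), SC replicate 6 high for Ciita relative to Cd74 (0.854), and SC replicate 3 high for Cd74 relative to Ptprc (0.64).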

How the results depend on the processing

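The 10 class II genes had lower means in IK tumors in every setting run in which they were tested (8 of 8 with the stricter filter, which dropped H2-Oa and H2-Ob). The count called was 0 in the main fit of all 12 tumors and 8 with sample weights. It was 0 to 5 with single tumors left out (5 without IK replicate 2, 0 without each other tumor). Over all genes the count was 0 in the main fit, 545 with sample weights, 171 without IK replicate 2 and 1 without the variance trend. No filter, the stricter filter, scaling by quantiles, medians or trimmed means, 2 reads added, robust variances and voom called 0 of the 10, and scalings shifted the median of all genes to at most 0.03. With a replicate block 0 of the 10 were called (limma, adjusted p = 0.439 to 0.518, differences unchanged by construction), and it changed no call of the ratios. The edgeR alternative was not run, because the deposited unit is log2.

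With single tumors left out, Ciita relative to Cd74 ranged from -0.0398 (without IK replicate 3, and -0.0137 without IK replicate 4) to 0.0544 (without IK replicate 1), and H2-Ob relative to H2-DMb1 from -0.0868 (without SC replicate 6) to 0.0198 (without SC replicate 2). Both change sign around 0, and the cause was not tested. Cd74 relative to H2-Ab1 was -0.00017 and H2-Aa relative to H2-Ab1 -0.04 without IK replicate 6, and H2-Oa relative to H2-DMa was 0.04 without SC replicate 2, against -0.03, -0.07 and 0.09 with all 12 tumors. Ratios called without IK replicate 2 were H2-DMa to H2-DMb1 (0.18), Cd74 to Ptprc (-0.43) and Cd74 to Csf1r (-0.73).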

Other observations

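The B cell markers of the fixed list did not move in 1 direction. Jchain, the joining chain of secreted antibody, averaged -0.24 ± 1.98 in IK tumors and 2.62 ± 1.92 in SC tumors (log2 CPM, SD, n = 6 each), a difference of -2.86 (limma adjusted p = 0.432). Blk, a B cell kinase gene below the filter, averaged -0.58 ± 0.75 in IK tumors and -2.05 ± 0.69 in SC tumors, a difference of 1.47 (limma with no filter, unadjusted p = 0.00271, adjusted p = 0.431). The lowest IK tumor for Blk was at -1.56 and the highest SC tumor at -1.54, so the groups overlapped narrowly, and its lowest tumor held 5 reads. Both genes were picked after their values were seen.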
